A study of Drosophila melanogaster with 4 samples.

Results

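Genes of the core spliceosome were compared between BG3 cells in which Cap-H2 was knocked down and BG3 cells treated with dsRNA against Brown. The set held the 35 genes whose symbols begin with Prp and a digit, Sf3, LSm or Lsm, SmB to SmG, snRNP or U2af, out of 8806 rows of genes and transposable element families. The set was chosen with earlier results of these data known, but its rule used names only and no measured value. The rule therefore takes in LSm1, Lsm10, Lsm11 and Lsm12a, whose roles given below lie outside the spliceosome. They are counted among the 35 spliceosome genes throughout. All 35 passed the minimum level for testing, a mean of 10 normalized reads over the 4 libraries, as did 7690 rows in all. The 35 were sorted by textbook role into the Sm ring (6 genes), the U1 snRNP and its associated factors (4), the U2 snRNP and branch site factors (10), the U4/U6.U5 tri-snRNP (6), the Prp19 complex and catalytic step factors (3) and the LSm proteins (6). SmG, the remaining subunit of the Sm ring, is not analysed here.

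The spliceosome removes introns from pre-mRNA and is assembled anew on each intron from small nuclear ribonucleoproteins, or snRNPs, each an RNA with bound proteins. U1 marks the start of the intron and U2 the branch site, after which the tri-snRNP of U4, U6 and U5 joins and is remodelled into the catalytic form. The proteins are needed in every dividing cell, and the Sm and LSm families are small proteins that close into rings around RNA.

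BG3 cells are an established fly line that came from the brain and nerve cord of larvae. The experiment asked what lowering condensin II does to transcript levels. Condensin II is a complex that compacts chromosomes and of which Cap-H2 is a subunit. The control group held 2 libraries from cells with dsRNA against Brown, an eye pigment gene, which the labels give the genotype WT, and the other group held 2 libraries labelled CapH2 Knockdown. All cells were of this line, received 20 µg of dsRNA for 30 min in medium without serum and were then grown for 4 days in complete medium. Nothing in the labels tells if replicate libraries were grown as different cultures. The p-values below therefore rest on a spread between libraries that may be technical only.

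The depth of the libraries, as reads assigned to a gene or an element family, ran from 21539511 to 21935781. Cap-H2 stood at 880 and 873 normalized reads in the control and at 543 and 555 in the knockdown (62.7% of the control, limma adjusted p = 1.5e-05), so the RNA was reduced but still present. In these bulk samples fewer cells of a type and less RNA per cell cannot be told apart. Of the markers of the nervous system, the neuronal gene elav stood at 559 and 531 normalized reads in the control and at 564 and 577 in the knockdown, while the synaptic genes nSyb and brp stood at 4.00 or below in every library. Of the neuronal markers 3 of 7 had a row, and of those of neural precursors 5 of 7. The glial gene moody stood between 5128 and 5626 and repo between 76.0 and 90.5. Of the haemocyte markers all 6 had a row, and their sum was 10694 and 10232 in the control against 10027 and 10135 in the knockdown. The sum of the glial markers with a row, 4 of 5, was 9067 and 8872 in the control against 8734 and 8681 in the knockdown. Both sums were lower in the knockdown without overlap. The neuronal sum, 565 and 538 against 571 and 582, and the neural precursor sum, 194 and 208 against 230 and 211, were higher without overlap. Of the gene with the highest level in each sum, moody, srp and insc overlapped between the groups and elav did not. The values were 5626 and 5294 against 5350 and 5128 for moody and 6374 and 6006 against 5928 and 6037 for srp. Those of insc were 151 and 175 against 178 and 170. Among all tested rows 38.7% did not overlap. The part of these markers in the results was not tested. Control replicate 1 stood apart in ribosomal RNA, with 31223 reads on the 12 rRNA rows against 8863, 6817 and 11826 in control replicate 2 and the knockdown replicates 1 and 2.

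No spliceosome gene passed the test. Of the 35 genes 0 had a limma adjusted p under 0.05 and 0 had an unadjusted p under 0.05, where over all tested rows the shares were 0.39% (0.325% higher and 0.065% lower in the knockdown) and 8.13%. Log2 fold changes ran from -0.15 for Sf3b5 to 0.49 for Lsm10, the least abundant member, and without Lsm10 the highest value was 0.08. The smallest adjusted p was 0.62, for SmF. The summed level of the 35 genes was 59541 and 59944 normalized reads in the control against 58599 and 59791 after knockdown, so the groups overlapped. As a share of all normalized reads the sum was 0.2786% ± 0.0006 (SD, n = 2) in the control and 0.2693% ± 0.0019 in the knockdown, lower without overlap. The total over all tested rows was 21330143 and 21541084 in the control against 21867380 and 22089669 in the knockdown, so a share can fall without a fall of the sum. The share of the U1 genes went from 0.0375% to 0.0371%, while their mean sum went from 8037 to 8160.

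The intervals show how large a change these libraries leave room for, on a spread that may be technical only. Their width rests on 2 residual and 14.4 prior degrees of freedom, so mostly on other rows. If the replicates were not different cultures, the intervals do not bound a change between cultures. For 28 of the 35 genes the 95% interval of the log2 fold change lay within 0.25 of zero in both directions, and for 34 within 0.5, the exception being Lsm10. The standard error of the log2 fold change had a median of 0.05, from 0.03 for Prp8 to 0.37 for Lsm10.

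Values below 0 were found for 21 of the 35 genes, against 50.1% of all tested rows. With median centring of the libraries they were 19, against 42.7% of all tested rows, and with 1 library left out between 19 and 25. The median log2 fold change was -0.03 against -0.00 for all tested rows. Without control replicate 2 or without knockdown replicate 1 the median of the 35 genes was -0.01, and without control replicate 1 it was -0.02. The knockdown libraries lay both below both control libraries for 9 of the 35 genes, where this holds for 19.5% of all tested rows, and both above for 1, where it holds for 19.2%. In either direction the groups did not overlap for 28.6% of the 35 genes and for 38.7% of all tested rows. The absolute log2 difference between the group means had a median of 0.03. The median was 0.06 between the 2 control libraries and 0.05 between the 2 knockdown libraries. Over all tested rows these medians were 0.06, 0.07 and 0.07. A difference between means of 2 libraries tends to be smaller than one between single libraries even without an effect. The first median is therefore not set against the others.

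**Figure D1:**
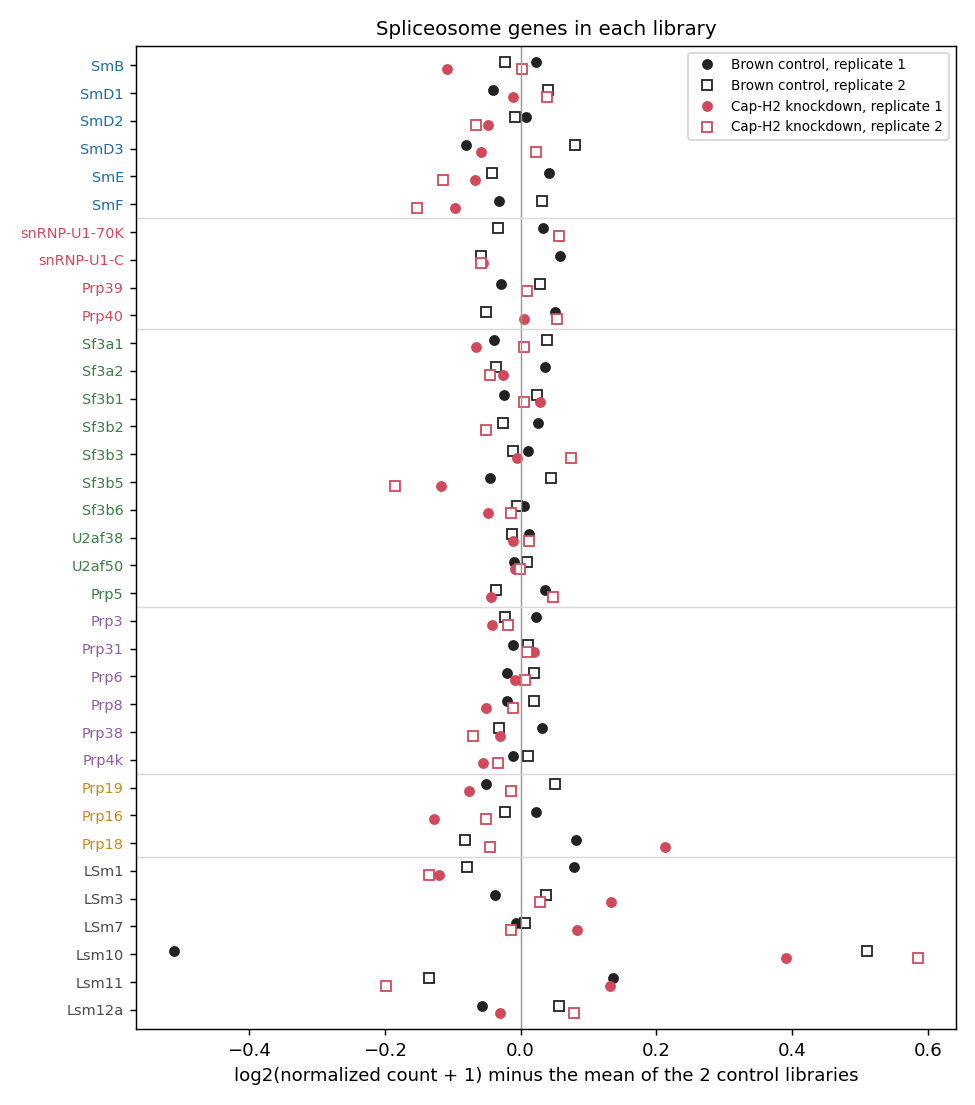
Level of each of the 35 spliceosome genes in every library, as log2 of the normalized count plus 1 minus the mean of the 2 Brown control libraries (black, control; red, Cap-H2 knockdown; circles, replicate 1; squares, replicate 2; name colours mark the 6 groups of genes). The groups do not overlap for 10 of the 35 genes (28.6%, against 38.7% of all tested rows), and the widest spread is that of Lsm10.

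Levels between genes were compared per length, as normalized reads per kb of exonic length in the control. Exonic length was the union of all annotated exons of a gene. The 35 genes ran from 33.9 for Lsm10 to 2541 for SmE, with a median of 832, and 31 of the 35 stood above the median of 318 for the 7548 tested rows with a known length. Of the Sm ring genes 4 headed this order. SmE was followed by SmD3 at 2180 ± 171 (SD, n = 2), SmB at 2087 ± 45.3 and SmD2 at 2029 ± 15.2. SmF stood at 1671 ± 51.0 and SmD1 at 1547 ± 61.3. The 6 ring genes, whose proteins enter each ring in equal number, spanned a 1.64-fold range per kb in the control and a 1.56-fold range in the knockdown.

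Between and after the last ring genes stood U2af50 (1711 ± 15.2 normalized reads per kb in the control, SD, n = 2), Sf3b3 (1622 ± 16.8) and Sf3b6 (1506 ± 7.63), all of the branch site machinery, followed by Prp19 at 1264 ± 62.6 and Prp8 at 1207 ± 24.1. The level of Sf3b3 is uncertain, since 57.9% of its exonic bases are shared with lncRNA:CR45184 on the same strand. At the lower end stood the helicase genes Prp16 (343) and Prp5 (303), Prp18 (159) and the U7 ring genes Lsm11 (53.9) and Lsm10 (33.9). Of the 34 pairs of neighbours in this order, 19 overlapped in their ranges over all 4 libraries, control and knockdown together. In the control alone SmF (1635 and 1707) and Sf3b3 (1633 and 1610) were apart, though they count among the 19. The gaps from SmE to SmD3, from SmD2 to U2af50 and from Prp8 to Sf3b5 were among the 15 pairs without overlap over the 4 libraries.

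**Figure D2:**
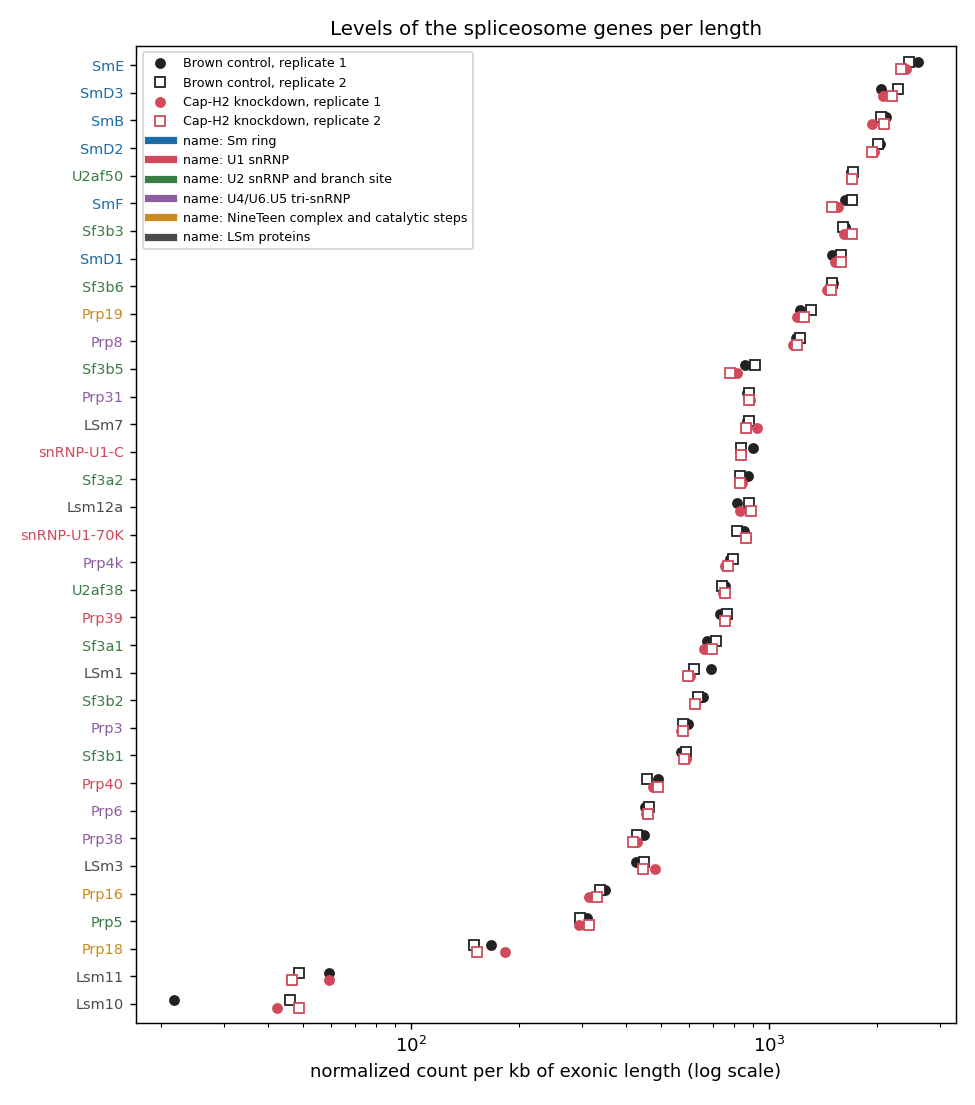
Normalized count per kb of exonic length (log scale) for the 35 genes in order of their control mean, 1 point per library (black, Brown control; red, Cap-H2 knockdown; circles, replicate 1; squares, replicate 2). The Sm ring genes have control means from 1547 to 2541, and the U7 ring genes Lsm10 and Lsm11 lie lowest at 33.9 and 53.9.

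The Sm ring, which surrounds the U1, U2, U4 and U5 RNAs, held the gene with the smallest p. SmF (FBgn0000426, dm6 chromosome 2R, 12183844 to 12184310, minus strand) stood at 764 and 797 normalized reads in the control and at 730 and 702 in the knockdown. SmE (FBgn0261790, 2L, 7884930 to 7885450, minus strand) stood at 1362 and 1285 against 1262 and 1222. In both genes the 2 knockdown libraries lay below the 2 control libraries. The log2 fold change was -0.12 for SmF (SE 0.06, 95% interval -0.25 to 0.00, limma unadjusted p = 0.0577, adjusted p = 0.62) and -0.09 for SmE (SE 0.05, 95% interval -0.20 to 0.02, adjusted p = 0.67).

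SmD3 and SmB, the most abundant ring genes by read number, showed no such separation. SmD3 stood at 1532 and 1712 normalized reads in the control and at 1555 and 1646 in the knockdown, and both knockdown values lay between the control values. SmB stood at 1644 and 1595 against 1502 and 1622, again with overlap. SmD2 stood at 1587 and 1571 against 1528 and 1509 without overlap, and SmD1, which had the only positive value of the ring, at 1096 and 1159 against 1119 and 1158. The log2 fold changes of these 4 genes were -0.02 for SmD3, -0.05 for SmB, -0.06 for SmD2 and 0.01 for SmD1, with limma adjusted p from 0.79 to 0.97. Exons of SmD3 share 279 of 744 bp with the antisense RNA asRNA:CR46194, and no source here tells if strand was used in counting. Summed over the 6 ring genes the level was 7985 and 8119 in the control and 7695 and 7859 in the knockdown, a sum lower without overlap.

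The U1 snRNP recognises the start of the intron. snRNP-U1-70K (FBgn0016978, 2L, 6968711 to 6971737, minus strand), which binds U1 RNA, stood at 2508 and 2397 normalized reads in the control and at 2548 and 2549 in the knockdown. It was the only one of the 35 genes with both knockdown libraries above both control libraries (log2 fold change 0.06, SE 0.04, limma adjusted p = 0.76). snRNP-U1-C, which steadies the pairing of U1 with the intron start, stood at 622 and 573 against 574 and 574 (-0.06, SE 0.07, adjusted p = 0.87). Its control libraries were farther apart than the groups, as control replicate 2 matched both knockdown libraries. Prp39, whose yeast counterpart joins U1, was the most abundant of this group by read number with 3537 and 3683 against 3632 and 3635, a log2 fold change of 0.01. Prp40, also known from the yeast U1 snRNP, had 0.03.

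The U2 snRNP binds the branch site through its SF3A and SF3B complexes, after the U2AF pair has read the sequence before the intron end. Sf3b5 (FBgn0040534, 3R, 9014972 to 9015341, minus strand), a small SF3B subunit, had the lowest value of all 35 genes. It stood at 318 and 338 normalized reads in the control and at 302 and 288 in the knockdown, with no overlap (log2 fold change -0.15, SE 0.09, 95% interval -0.34 to 0.04, limma adjusted p = 0.69). Its exons span 370 bp, the shortest of the 35 genes. Sf3b2, the next by p, stood at 1758 and 1697 against 1665 and 1667 (-0.05, SE 0.04, adjusted p = 0.81).

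The other genes of this group differed by less. Sf3b3, the most abundant by read number, stood at 7071 and 6968 normalized reads in the control and at 6997 and 7390 in the knockdown (log2 fold change 0.03). U2af50, the large U2AF subunit that binds the pyrimidine tract, stood at 2798 and 2834 against 2800 and 2814 (-0.00), and its small partner U2af38 at 1248 and 1227 against 1228 and 1248 (0.00). In both U2AF genes each knockdown value lay within or at the edge of the control range. Sf3b1, which holds the branch site helix, had 0.02, the SF3A genes Sf3a1 and Sf3a2 had -0.03 and -0.03, Sf3b6, which contacts Sf3b1, had -0.03 and the helicase gene Prp5 had 0.00, with limma adjusted p from 0.904 to 0.995. Sf3b6 was the third gene of this group without overlap, at 1390 and 1380 against 1340 and 1372.

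Prp8, the large U5 protein that cradles the catalytic RNA core, was the most abundant of the 35 genes by read number. Prp8 (FBgn0033688, 2R, 12154258 to 12162998, minus strand) stood at 8859 and 9113 normalized reads in the control and at 8675 and 8920 in the knockdown. The groups overlapped, the log2 fold change was -0.03 (SE 0.03, limma adjusted p = 0.84) and the 95% interval ran from -0.10 to 0.04. Prp4k, a kinase of the tri-snRNP, stood at 2501 and 2541 against 2426 and 2464, without overlap (-0.04, SE 0.04, adjusted p = 0.81). The U4/U6 protein genes Prp3 and Prp31 had log2 fold changes of -0.03 and 0.01, Prp6, which bridges U5 and U4/U6, had -0.00, and Prp38, needed in yeast to activate the assembled spliceosome, had -0.05. The groups of these 4 genes overlapped.

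Among the factors of the active spliceosome, Prp16, a helicase that remodels it between the catalytic steps, had the second smallest p of the 35 genes. Prp16 (FBgn0026713, X, 14201362 to 14224732, plus strand) stood at 1418 and 1372 normalized reads in the control and at 1276 and 1346 in the knockdown. The groups did not overlap, and the log2 fold change was -0.09 (SE 0.05, 95% interval -0.19 to 0.01, limma adjusted p = 0.67). Prp19, the ubiquitin ligase after which the Prp19 complex is named, stood at 2143 and 2299 against 2106 and 2198 (-0.04, SE 0.04, adjusted p = 0.83). Prp18, a factor of the second step in yeast, stood at 218 and 195 against 239 and 200 (0.08, SE 0.12, adjusted p = 0.90). For both genes the groups overlapped.

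LSm proteins form related rings. LSm3 and LSm7 belong both to the nuclear ring on U6 RNA and to the cytoplasmic ring of mRNA decay, while LSm1 marks the cytoplasmic ring. LSm1 (FBgn0261067, 2R, 21169969 to 21170672, minus strand) stood at 405 and 363 normalized reads in the control and at 353 and 349 in the knockdown (log2 fold change -0.13, SE 0.09, 95% interval -0.31 to 0.06, limma adjusted p = 0.75). The knockdown libraries lay below both control libraries, and the control libraries differed from each other by 0.16 on the log2 scale. The value was -0.05 without control replicate 1 and -0.21 without control replicate 2. LSm3 and LSm7 had positive values with overlap, 0.08 (SE 0.09) for LSm3 at 274 and 288 against 308 and 286, and 0.03 (SE 0.07) for LSm7 at 633 and 638 against 673 and 629. Exons of LSm7 share 296 of 727 bp with ChLD3 on the opposite strand, and exons of LSm3 share 187 of 643 bp with CG33108 on the same strand.

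Lsm10 and Lsm11 take the place of Sm subunits in the U7 snRNP, which processes the ends of histone pre-mRNA. Lsm10 rested on 12 and 25 reads in the control and on 23 and 26 in the knockdown. Its log2 fold change of 0.49 (SE 0.37, 95% interval -0.30 to 1.28, limma adjusted p = 0.78) compares groups that overlap, with control replicate 1 alone at the low end, and it was -0.02 without that library. Lsm11 stood at 63 and 52 normalized reads against 62.8 and 49.7 (-0.03, SE 0.22). Lsm12a, an LSm-domain gene outside the rings, stood at 1016 and 1100 against 1036 and 1117, where replicate 2 was higher in both groups (0.02, SE 0.06).

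**Figure D3:**
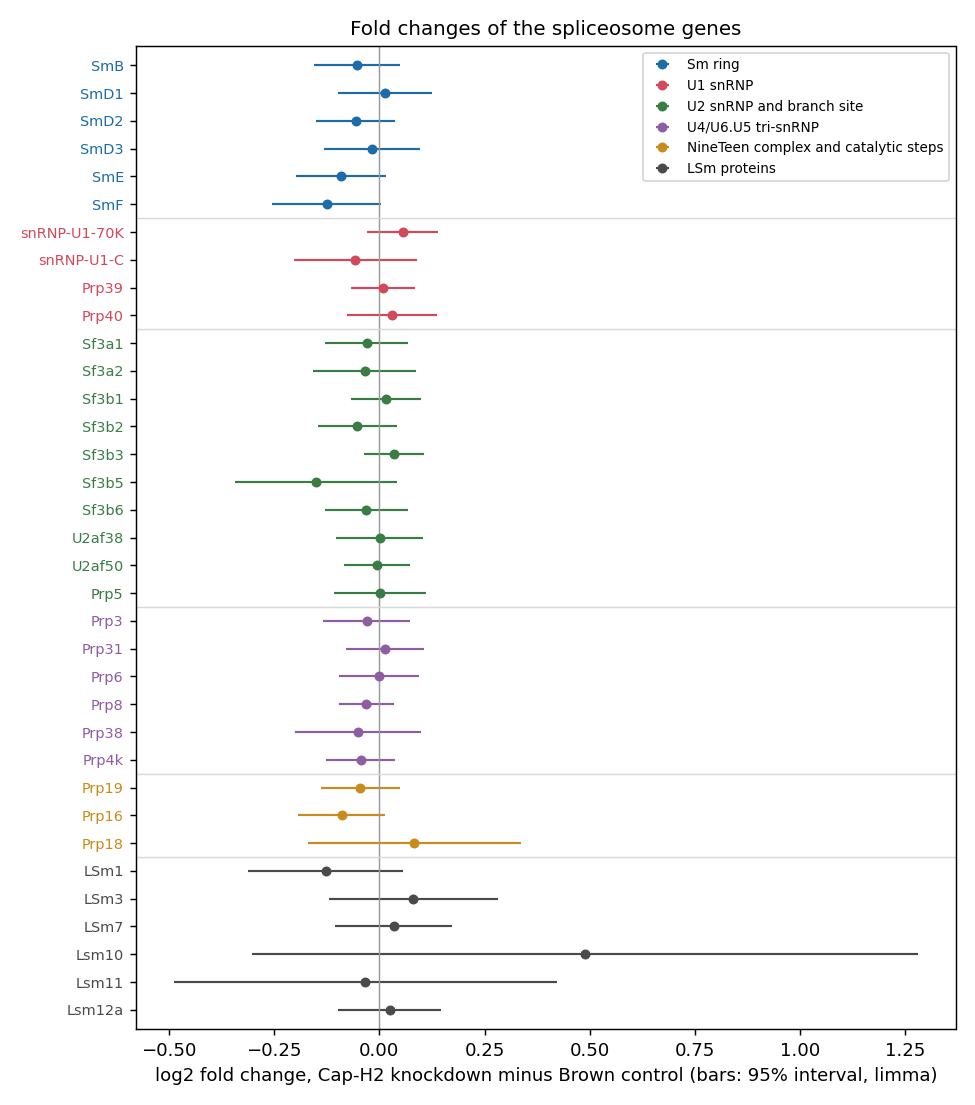
Log2 fold change of the 35 genes, Cap-H2 knockdown minus Brown control, with 95% intervals from limma (2 libraries a group), coloured by group of genes. All 35 intervals span 0, and that of Lsm10 is the widest, from -0.30 to 1.28.

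The 6 groups of genes had median log2 fold changes of -0.05 for the Sm ring, 0.02 for U1, -0.02 for U2, -0.03 for the tri-snRNP, -0.04 for the Prp19 complex and catalytic step factors and 0.03 for the LSm proteins. The value was negative for 5 of 6 Sm ring genes, 5 of 6 tri-snRNP genes and 6 of 10 U2 genes. Of the Prp19 complex and catalytic step factors 2 of 3 were negative, as were 1 of 4 U1 genes and 2 of 6 LSm genes. Among all tested rows 50.1% were negative. All 6 Sm ring genes have exons under 1000 bp, and of such tested rows 57.7% were negative. These are descriptions, and no difference between the groups was tested.

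Exonic length moved with these values. The 14 genes with exons under 1000 bp, among them all 6 Sm ring genes, had a median of -0.04, and the 21 longer genes had a median of -0.00. Over all tested rows the corresponding medians were -0.02 for 1083 short rows and 0.00 for 6465 longer rows. Short rows also shifted between replicates, with medians of replicate 2 minus replicate 1 of 0.0128 in the control and -0.0178 in the knockdown. These medians were 0.0014 and 0.0009 for the longer rows, and 0.0011 and -0.0166 for the 14 short members. After the trend with exonic length over all rows was removed, the median of the 35 genes was -0.01. The part of length in the values of single genes was not tested otherwise.

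**Figure D4:**
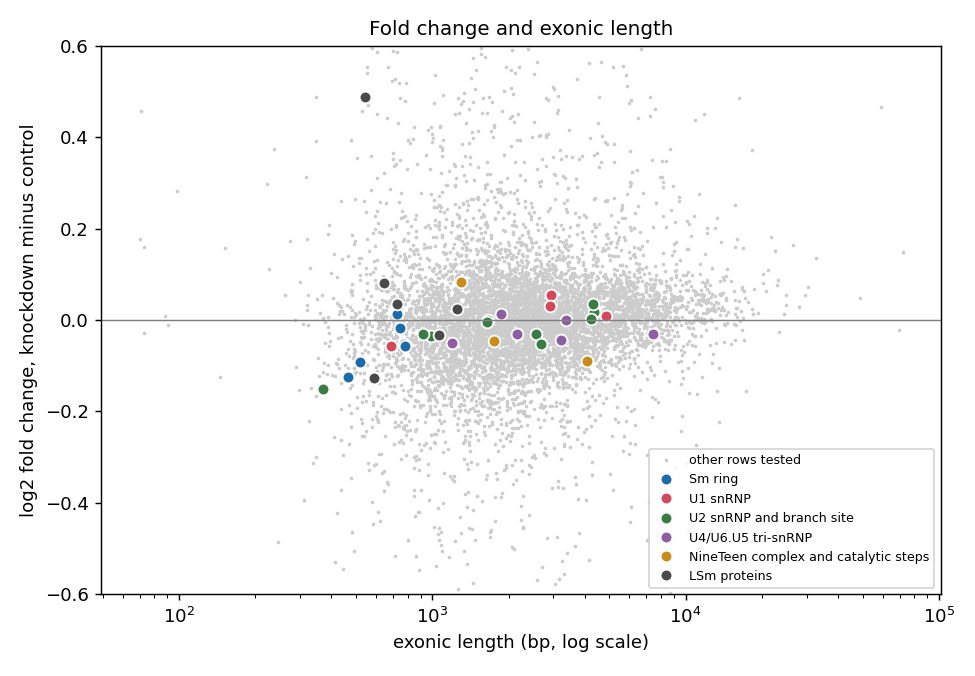
Log2 fold change (knockdown minus control) against exonic length (log scale) for the 35 genes, coloured by group, over the other tested rows with a known length in grey; 126 rows beyond 0.6 on the vertical axis are not drawn. The shortest members, Sf3b5, SmF and SmE, lie at -0.15, -0.12 and -0.09, and Lsm10 at 0.49.

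The members were spread over the genome, with 8 each on 2L, 2R and 3L, 7 on 3R and 4 on X. Prp40 and Sf3b2 overlap by 188 bp at their ends on opposite strands of 2L, and how reads there were counted is not known. Their log2 fold changes were 0.03 and -0.05. SmD3 starts 5732 bp from Prp8 on 2R, and SmF lies a further 13840 bp on, with values of -0.02, -0.03 and -0.12. The 4 genes on X, Lsm12a, Prp16, Prp5 and U2af50, had values of 0.02, -0.09, 0.00 and -0.00.

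Other genes that act with the members were taken from lists of names. Of 37 further spliceosome genes 0 passed limma (3 at an unadjusted p under 0.05, near the 8.13% of all tested rows) and their median log2 fold change was -0.02. Spf30, a U2-associated factor in humans, stood at 844 and 822 normalized reads in the control and at 897 and 925 in the knockdown (0.13, SE 0.06, adjusted p = 0.57), and hfp, a splicing regulator of the PUF60 family, had 0.06 (SE 0.03, adjusted p = 0.64). Of the tri-snRNP list, hoip, which binds U4 RNA, had -0.11 (SE 0.06, adjusted p = 0.66) at 985 and 1081 against 933 and 979, and CG6686 had -0.02. The value of hoip was -0.18 without control replicate 1 and -0.04 without control replicate 2. Of the Prp19 complex list, fand, a relative of yeast Syf1, had -0.12 (SE 0.05, adjusted p = 0.55) at 1207 and 1226 against 1152 and 1081. CG12343 stood at 523 and 537 against 464 and 479 (-0.17, SE 0.07, adjusted p = 0.55). Both were lower in the knockdown libraries without overlap.

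Genes that assemble snRNPs gave 0 of 11 tested past the threshold (0 at an unadjusted p under 0.05), with a median of -0.03. The value was negative for 10 of 11, against 50.1% of all tested rows. Of these 10, Gem3, csul and icln had -0.01 each. The lowest, -0.27 for Gem4c, rested on 11 to 18 reads a library. Gem2, of the SMN complex that loads Sm rings, stood at 319 and 315 normalized reads in the control and at 264 and 296 in the knockdown (log2 fold change -0.18, SE 0.10, limma adjusted p = 0.66). coil, which encodes the Cajal body protein coilin, stood at 465 and 523 against 450 and 458 (-0.12, SE 0.08, adjusted p = 0.72). With 1 library left out coil ranged from -0.20 (without control replicate 1) to -0.04 (without control replicate 2), and Gem2 from -0.26 (without knockdown replicate 2) to -0.10 (without knockdown replicate 1). Smn itself had the only positive value, 0.05, at 734 and 701 against 727 and 763.

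Of 28 genes of SR proteins and splicing regulators 0 passed limma (3 at an unadjusted p under 0.05, where 8.13% of all tested rows were), with a median of 0.02. The value was negative for 9 of the 28, against 50.1% of all tested rows. RnpS1, which also belongs to the exon junction complex, had the smallest p of the mRNA genes on these lists. It stood at 1106 and 1150 normalized reads in the control and at 1012 and 999 in the knockdown (log2 fold change -0.17, SE 0.05, limma unadjusted p = 0.00572, adjusted p = 0.30). rump, an hnRNP gene, stood at 4357 and 4461 against 4170 and 4130 (-0.09, SE 0.03, adjusted p = 0.52). Neither gene overlapped between the groups.

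Partners of the exon junction and of the cytoplasmic and U7 LSm rings gave 0 of 18 past the threshold in limma (2 at an unadjusted p under 0.05, of which 1 is RnpS1 again, where 8.13% of all tested rows were), with a median of -0.01. tsu, a core exon junction protein gene, had a log2 fold change of -0.05 (adjusted p = 0.82). The decay partners pcm, the exonuclease, and tral had -0.04 and 0.02 (adjusted p = 0.87 and 0.88). Slbp, which binds the histone mRNA stem loop, stood at 749 and 743 normalized reads in the control and at 701 and 640 in the knockdown (-0.16, SE 0.07, adjusted p = 0.55), and Sym, of the cleavage complex, had -0.07 (adjusted p = 0.75).

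Few reads fell on the snRNAs themselves. Of 8 snRNA rows 3 reached the minimum, and the other 5, rows of U1, U2 and U4, held between 1 and 9 reads in a library. The U12 RNA stood at 18.7 and 21.0 normalized reads in the control and at 22.9 and 29.4 in the knockdown (log2 fold change 0.37, SE 0.32, limma adjusted p = 0.81). The U7 RNA, of the snRNP with Lsm10 and Lsm11, stood at 9.84 and 15.0 against 17.9 and 16.2, on 10 to 18 reads a library (0.46, SE 0.40, limma adjusted p = 0.815). Both rows were higher without overlap, as were 19.2% of all tested rows. The row snRNA:7SKa, a regulator of transcription elongation and no part of the spliceosome, stood at 105 and 32.0 against 24.9 and 20.3 (-1.33, SE 0.39, adjusted p = 0.24). Its highest value was in control replicate 1, the library with the most rRNA reads. Its log2 fold change was -2.18 (limma adjusted p = 1.88e-08) without control replicate 2 and -0.49 (adjusted p = 0.856) without control replicate 1, and with the replicate number as a block the adjusted p was 3.34e-04.

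By the p-values of the authors' deposited table, 0 of the 35 genes had an adjusted p under 0.05 and 0 an unadjusted p under 0.05, where 0.363% and 2.37% of its 8806 rows did. The smallest unadjusted p of a member in the authors' deposited table was 0.205. The counts were per gene, so intron retention and exon choice are not measured here.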

How the data were processed

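RNA-seq libraries of 2 Brown control and 2 Cap-H2 knockdown samples were analysed. The tools fastp, HISAT2 and HTSeq and the build dm6 are named in the submitters' processing notes, without versions or a strand setting. The deposited table holds a signal, normalized read counts. In each library its values were whole multiples of 1 step (tolerance 0.001). The 3 special rows of HTSeq, between 11.5% and 13.9% of reads, were left out. A second deposited table gives log2 fold changes and p-values by the authors.

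All 35 members were matched by symbol to the Ensembl annotation BDGP6.54 (dm6 coordinates), which gave positions, exonic lengths and overlaps. The test was limma 3.58.1 in R 4.3.3, two-sided, with moderated variances that follow a trend with the mean. It was fitted to log2(normalized count + 1) over 7690 rows that averaged 10 or more, with Benjamini-Hochberg adjustment over all of them and a threshold of 0.05. Fold changes on this scale understate the change of low genes. There were 2 residual and 14.4 prior degrees of freedom. With 2 libraries a group the smallest p of an exact permutation test is 0.333. The fit was tested on simulated data. Every member is named, with values per library for at least the 2 most abundant and the 2 of smallest p in each group of genes. Of each other list the 2 genes of smallest p are named. Smn, Gem3, Gem4c, csul, icln and the U7 RNA were named after their values were seen, and their values with 1 library left out are not given here. Members and lists were chosen with earlier results of these data known. Alternatives covered the pseudocount, the minimum, scaling, the variance model, the replicate number, length and each library left out.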

Additional observations from a re-analysis of the deposited data

How the results depend on the processing

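Over the 14 alternatives run, 0 members passed limma (smallest adjusted p 0.407, Lsm10 without control replicate 2), as did 0 genes of the other lists except the snRNA rows. Count models, with edgeR or DESeq2, were not run, and Lsm10 has no value at a minimum of 50. Over all rows, 30 passed, against 14 with quantile normalization, 59 with robust variances and between 41 and 127 with 1 library left out, with the spread of the lone library taken from the remaining pair. They were 74 without control replicate 1, 127 without control replicate 2 and 50 without knockdown replicate 1. Of the snRNA rows between 0 and 1 passed with 1 library left out, the 1 being 7SKa without control replicate 2. The members' median log2 fold change was -0.016 with median centring, where that of all rows moved to 0.0141, -0.0171 with quantile normalization, -0.0099 with the exonic length trend removed and from -0.0307 to -0.0105 with 1 library left out.

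With the replicate number as a block 146 rows passed, 0 members and 1 snRNA row, 7SKa. The labels do not say that a number marks a shared batch, and there are only 2 pairs, so the pairing is not part of the design. The correlation of same-numbered deviations was -0.0271 over 7690 rows and 0.5295 over the 35 members.

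The sign of the log2 fold change was kept in all alternatives by 15 members and changed in at least 1 by 20. With median centring U2af50 was 0.0097 and Prp6 0.0136, and with quantile normalization Prp39 was -0.0027, Prp6 0.0045 and tral -0.0084. With the length trend removed SmD3 was 0.0067, Prp39 -0.0006, U2af50 0.0073 and Prp5 -0.0047. The cause was not tested.

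With 1 library left out, the log2 fold changes that turned sign ranged as follows. Values ran for SmB from -0.1086 to 0.0029, SmD1 from -0.0263 to 0.0545, SmD3 from -0.0976 to 0.0621, snRNP-U1-C from -0.1154 to 0.0020, Prp39 from -0.0197 to 0.0385, Prp40 from -0.0216 to 0.0814. They ran for Sf3a1 from -0.0692 to 0.0087, Sf3a2 from -0.0712 to 0.0012, Sf3b1 from -0.0075 to 0.0408, Sf3b3 from -0.0046 to 0.0742, U2af38 from -0.0112 to 0.0125, U2af50 from -0.0137 to 0.0045. Ranges were for Prp5 from -0.0433 to 0.0478, Prp6 from -0.0209 to 0.0195, Prp19 from -0.0955 to 0.0056, Prp18 from -0.0453 to 0.2123, LSm7 from -0.0136 to 0.0828, Lsm10 from -0.0224 to 0.9995. The rest ran for Lsm11 from -0.1986 to 0.1320, Lsm12a from -0.0327 to 0.0816, CG6686 from -0.0628 to 0.0240, pcm from -0.0829 to 0.0032.

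Of the values that kept their sign, those that moved by over 1.5 times with 1 library left out, beside the ones given with their gene, were SmE from -0.13 to -0.05, snRNP-U1-70K from 0.02 to 0.09, Sf3b2 from -0.08 to -0.03, Sf3b6 from -0.05 to -0.01, Prp3 from -0.05 to -0.01, Prp31 from 0.00 to 0.03, Prp8 from -0.05 to -0.01, Prp38 from -0.08 to -0.02. Also in this class were Prp16 from -0.13 to -0.05, LSm3 from 0.03 to 0.13, hfp from 0.03 to 0.10, fand from -0.17 to -0.08, tsu from -0.08 to -0.02, tral from 0.01 to 0.04, Slbp from -0.22 to -0.09, Sym from -0.10 to -0.04, snRNA:U12 from 0.20 to 0.55.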
